A study of Bos grunniens and Bos grunniens x Bos taurus with 2 samples.

Results

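The kinesin, tubulin and manchette genes described here are the 42 of 26961 annotated features whose symbol starts with KIF or KIFC and a number, with TUBA, TUBB or TUBG and a number, or is *HOOK1*. They comprise *HOOK1*, 34 kinesins and 7 tubulins, and they were followed across the germ cells and somatic cells of testis in single-cell RNA-seq libraries of a yak and of a cattle-yak. Only 15722 of the 26961 features carry a symbol, so kinesin and tubulin genes annotated without a symbol were not taken. Every member had counts in both libraries, and 41 of them reached 50 counts in at least 1 group of cells. The exception was *TUBB1*, a beta tubulin known from platelets, with 2 counts in each library.

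Kinesins are motors that walk along microtubules or take their ends apart, and tubulins are the subunits from which microtubules are built. In the testis these proteins form the spindles of dividing spermatogonia and spermatocytes, the flagellum of the spermatid, and the manchette, a transient skirt of microtubules around the spermatid nucleus that helps to shape the head and to carry cargo to the growing tail. *HOOK1* is an adaptor that links the manchette to other structures of the elongating spermatid. The kinesins were grouped by their known roles into 12 that act in the spindle or midzone, 9 of the cilium and flagellum, 11 that transport cargo and 2 others, and the tubulins into 3 alpha, 3 beta and 1 gamma.

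The yak library came from testis of a sexually mature yak (Bos grunniens), given in the methods as a healthy animal aged 4 years. The cattle-yak library came from testis of a sexually mature Bos grunniens x Bos taurus hybrid, whose age and number of animals were not given in the sources used here. Per the methods, written for the yak, frozen tissue blocks were thawed and digested with enzymes before droplet capture. Each group is 1 library, so values are given with no test between animals, and a difference between libraries compares those libraries and not the crosses. The yak library held 11991 barcodes with 60816600 UMIs (unique molecular identifiers, each counting 1 captured RNA) and the cattle-yak library 8930 barcodes with 43774841 UMIs, at medians of 2533 and 3155 UMIs a barcode, and they shared 24 barcode sequences.

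Germ stages in yak were read from 2 sets of cells. The first set came from the authors' typing of single barcodes. It held 1127 yak barcodes in the matrix, 84 spermatogonial stem cells (SSC), 486 spermatogonia (SPG), 72 early spermatocytes (early-SPC), 261 late spermatocytes (late-SPC) and 224 spermatids (SPT). The second set was 412 deep germ cells, barcodes above an upper limit on UMIs or genes that was recomputed here by the study's rule. Of these, 98 were SPG-like, 87 early SPC-like, 98 late SPC-like and 71 SPT-like by their markers and 58 were left unnamed. No typed barcode was deep, so the sets share no cell, but they are cells of 1 library and not replicates. Typed cells were shallow, with median depths from 906 UMIs in SPT to 1799.5 UMIs in early-SPC, against 20585 to 34610.5 UMIs in the named deep stages. The deep cells were clustered and named without these genes. The paper does not say that the authors' typing left them out, and *HOOK1* was among the genes by which the study recognised SPT. The typed stages below are SPG to SPT, and the SSC are described apart. Stage differences are given as descriptions.

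Levels are a gene's UMIs summed over a group and divided by all UMIs of that group, as CPM, a scale with the same total in every group, with an exact Poisson 95% interval in parentheses that covers counting error only. A log2 ratio compares 2 groups after 1 CPM was added to each, its interval is that of the ratio of raw counts, so a low gene's ratio can lie outside it, and a gene was called higher or lower where it had at least 20 counts over both groups and the ratio was at least 2-fold. CPM of different genes cannot be compared per length, since no transcript lengths were used.

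Markers of other cell types moved with the germ types and are given once. The list of 10 myoid cell (MC) markers summed to 4560.5 CPM in typed SPG, 558 CPM in early-SPC, 1633 CPM in late-SPC and 2566 CPM in SPT, but to 121 to 553 CPM in the deep stages, against 30115 CPM in MC-like cells. The 12 endothelial cell (EC) markers stood at 2234 CPM in SSC and 91.3 to 561 CPM in the other types, against 4257 CPM in EC-like cells, and the 13 T and NK cell markers at 183 to 1027 CPM in SPG to SPT and 90.2 to 164 CPM in the deep stages. From 0 to 3 markers of each of these lists were at 0 in the typed groups. The 12 spermatid markers separated the last stage in both sets, at 5327 CPM in SPT against 445 CPM in late-SPC, and 10839 CPM in deep SPT-like cells against 560.0 CPM in deep late SPC-like cells. In clustering of all cells, however, 179 of the 261 typed late-SPC and 166 of the 224 typed SPT fell in the same shallow cluster, and the part of these admixtures in the stage values was not tested. The early spermatocytes of the sets also differed in make-up. Late-SPC markers summed to 176 CPM in typed early-SPC and 1527 CPM in deep early SPC-like cells, and early-SPC markers to 6918 and 2187 CPM, and the part of this in the early-stage values was not tested.

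As a group, these genes were higher in typed germ cells than in the rest of the yak library. Of 40 members with enough counts, 26 were higher in the 1127 typed germ cells than in the 9197 other kept cells and 2 were lower, where 29% and 15.1% of 14834 genes were higher and lower. The median log2 ratio was 1.90 for the members and 0.23 for all genes tested. The 9197 cells still held germ-like cells that were not typed. Without them, in an alternative added after the data were seen, 8924 cells remained and 27 members were higher and 2 lower, but the levels set against the germ cells fell, from 103 to 57.6 CPM for the summed spindle and midzone kinesins, from 11.7 to 4.79 CPM for *HOOK1* and from 104 to 40.2 CPM for *TUBA3D*, so the ratios of these genes are smaller than they would be against the 8924 cells. All 12 spindle and midzone kinesins were among the higher ones. Against all 9197 cells the largest ratios were those of *TUBA3D* at 3.57 (3.5 to 3.66), *HOOK1* at 3.18 (3.04 to 3.54), *KIF18A*, which damps chromosome movement, at 2.89 (2.72 to 3.56), *KIF15* at 2.88 (2.74 to 3.12) and *KIF24* at 2.80 (2.61 to 3.41).

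**Figure D1:**
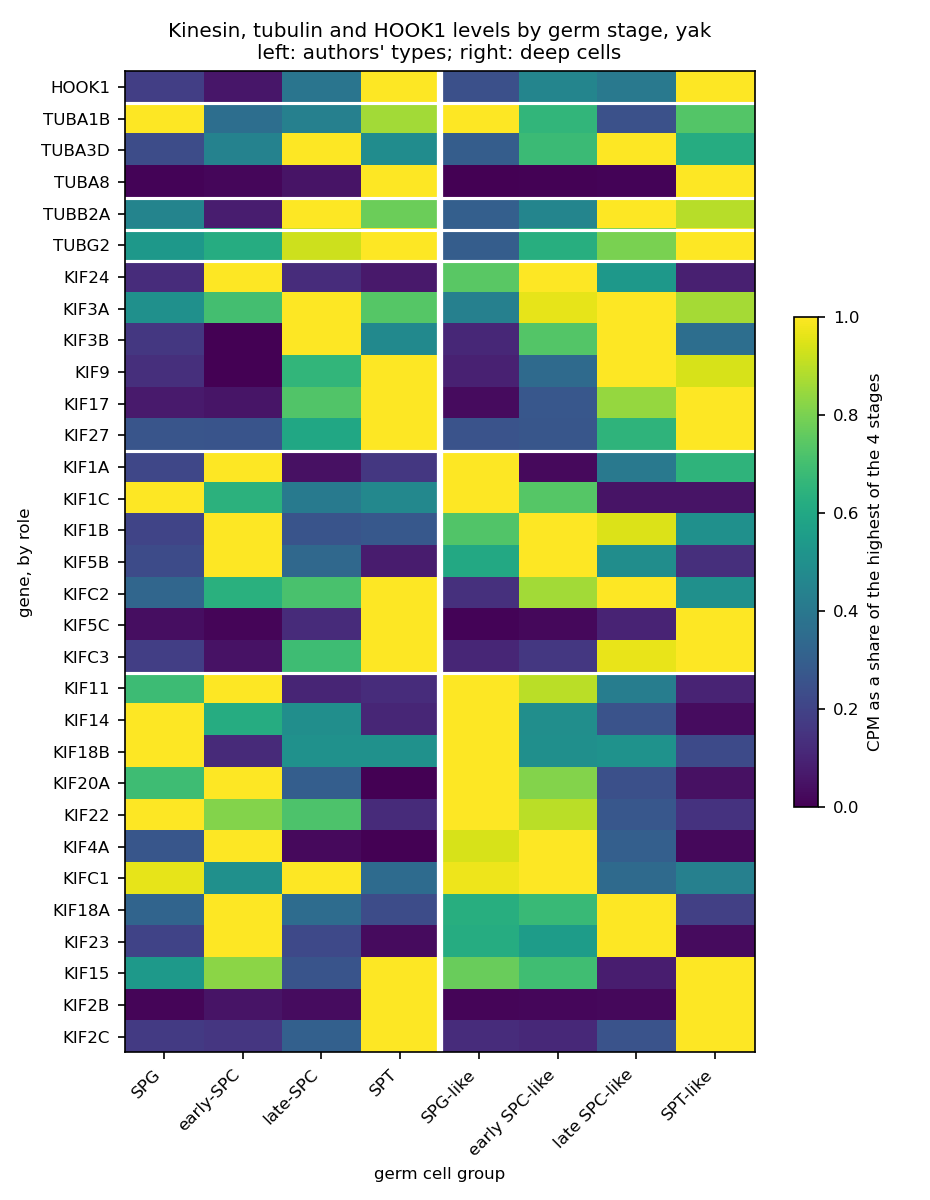
Heat map of 31 members with at least 50 counts in the deep stages and 20 in the typed stages, arranged by role (rows) and germ cell group of the yak library (columns). Colour gives a gene's CPM as a share of its highest stage within each set of 4, and *TUBA8*, *KIF5C*, *KIF2B* and *KIF2C* are brightest in the spermatid column of both sets, whereas *KIF23* is dark there.

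*HOOK1* had its highest level in spermatids. In the typed cells it stood at 64.6 CPM (46.2 to 88.0) in SPG, 21.1 CPM (7.73 to 45.9) in early-SPC, 134 CPM (103 to 172) in late-SPC and 346 CPM (279.7 to 424) in SPT. Deep cells gave 101 CPM (88.7 to 114) in SPG-like, 189 CPM (172 to 207) in early SPC-like, 168 CPM (156 to 179.9) in late SPC-like and 415 CPM (390.2 to 439.9) in SPT-like cells. The spermatid interval lay above those of all other stages in both sets, while early spermatocytes were the lowest stage of the typed cells and above SPG-like cells in the deep set. The log2 ratio of SPT to late-SPC was 1.36 (0.89 to 1.85), and that of deep SPT-like to deep late SPC-like cells was 1.30 (1.17 to 1.44).

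The share of typed cells with a *HOOK1* UMI was also higher in SPT than in late-SPC at a fixed depth. After thinning each cell to 1000 UMIs, 31.6% (exact binomial 95% interval, 22.6 to 41.8) of 98 SPT and 10.4% (6.16 to 16.1) of 164 late-SPC had a *HOOK1* UMI, with 126 and 97 shallower cells left out. Without thinning the shares were 31.7% and 16.5%. T/NK-like cells, a non-germ class with a median of 1956 UMIs, gave 0.514% (0.305 to 0.812) of 3499 cells thinned and 1.20% unthinned, so the spermatid share was above it. Whether this low share is free RNA or expression was not tested, and T/NK-like cells of cattle-yak, a library with no SPT-like cluster, had 8.94 CPM (5.89 to 13.0) of *HOOK1*. Deep SPT-like cells gave 22.5% (13.5 to 34.0) thinned and 71 of 71 cells unthinned, and the thinned share of deep early SPC-like cells, 18.4% (10.9 to 28.1), was not apart from it.

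*HOOK1* was low in most somatic classes of yak. Its level ran from 1.27 CPM (0.0321 to 7.06) in macrophage-like to 6.18 CPM (3.92 to 9.27) in stromal-like cells, and these classes mostly did not differ beyond their intervals. Epithelial-like cells stood apart at 30.9 CPM (16.4 to 52.8), from 13 counts in 76 cells. The 8924 kept yak cells that were neither typed nor germ-like had 4.79 CPM (4.08 to 5.60).

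The alpha tubulins differed from each other in stage. *TUBA8*, an alpha tubulin of restricted expression, had few counts before the spermatid stage, at 195 CPM (146 to 255) in SPT against 10.5 CPM (3.41 to 24.5) in late-SPC, 3.51 CPM (0.0889 to 19.6) in early-SPC and 1.62 CPM (0.0409 to 9.0) in SPG, the last 2 from 1 count each. Deep cells gave 428 CPM (403 to 454) in SPT-like against 4.86 CPM (3.04 to 7.35) in late SPC-like cells, and 1.66 CPM (0.451 to 4.24) in SPG-like cells. The log2 ratio to late spermatocytes was 4.09 (2.90 to 5.90) in typed and 6.19 (5.86 to 7.14) in deep cells. At 1000 UMIs, 18.4% (11.3 to 27.5) of SPT and 36.6% (25.5 to 48.9) of 71 deep SPT-like cells had a *TUBA8* UMI, against 0.257% (0.118 to 0.488) of T/NK-like cells (18.3%, 91.5% and 0.518% unthinned).

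*TUBA3D*, an alpha tubulin known from testis, peaked a stage earlier. It rose from 589.9 CPM (531 to 654) in SPG and 1127 CPM (1007 to 1258) in early-SPC to 2532 CPM (2391 to 2679) in late-SPC, and stood at 1233 CPM (1105 to 1373) in SPT. The deep stages gave 1075 CPM (1034 to 1117), 2481 CPM (2418 to 2544), 3639.5 CPM (3584 to 3696) and 2250.3 CPM (2193 to 2308) in the same order. Late spermatocytes were the highest stage in both sets with intervals apart from the next, and the SPT to late-SPC log2 ratio was -1.04 (-1.22 to -0.86) in typed cells and -0.69 (-0.74 to -0.65) in deep cells, the latter short of 2-fold.

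*TUBA1B*, a broadly used alpha tubulin, ran the other way. It was lower in typed germ cells than in other kept cells, with a log2 ratio of -1.42 (-1.51 to -1.33) from 1464 CPM (1451 to 1476) in the latter. Among typed stages from SPG to SPT, a ranking without SSC, it was highest in SPG at 693 CPM (629 to 762), with SPT next at 596 CPM (508 to 696) and overlapping it. Deep cells were far lower, from 164 CPM (148 to 181) in SPG-like to 40.8 CPM (35.2 to 47.2) in late SPC-like cells. Somatic yak classes ran from 811 CPM (783 to 839.9) in MC-like to 2619 CPM (2508 to 2735) in macrophage-like cells, and the typed germ groups also held the MC and T/NK markers given above. Tubulins are a family of near-identical copies, and the counting could split or misplace reads between them, which was not tested.

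Of the 3 beta tubulins among the members, *TUBB2A* carried nearly all counts. Beta tubulin genes without such a symbol were not taken, so its share of all beta tubulin RNA is not known. It stood at 329.7 CPM (286 to 378) in SPG, 59.7 CPM (34.8 to 95.6) in early-SPC, 731 CPM (656 to 812) in late-SPC and 567 CPM (481 to 664) in SPT, and at 346, 519, 1139 and 1017 CPM in the deep stages. The low value of typed early-SPC, from 17 counts, was not seen in deep early SPC-like cells, whose interval was 491 to 549 CPM and which held more late-SPC marker counts. *TUBB4A*, a beta tubulin known from neurons, had at most 7.36 CPM in any typed stage. *TUBG2*, a gamma tubulin of the microtubule-nucleating complex, climbed through the deep stages from 67.5 CPM (57.5 to 78.7) to 143 CPM (128 to 159), 182 CPM (169.7 to 195) and 228 CPM (209.8 to 247), with no interval overlapping the next. Its typed stages kept the same order, 72.7, 84.3, 126 and 136 CPM, but neighbouring intervals overlapped.

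**Figure D2:**
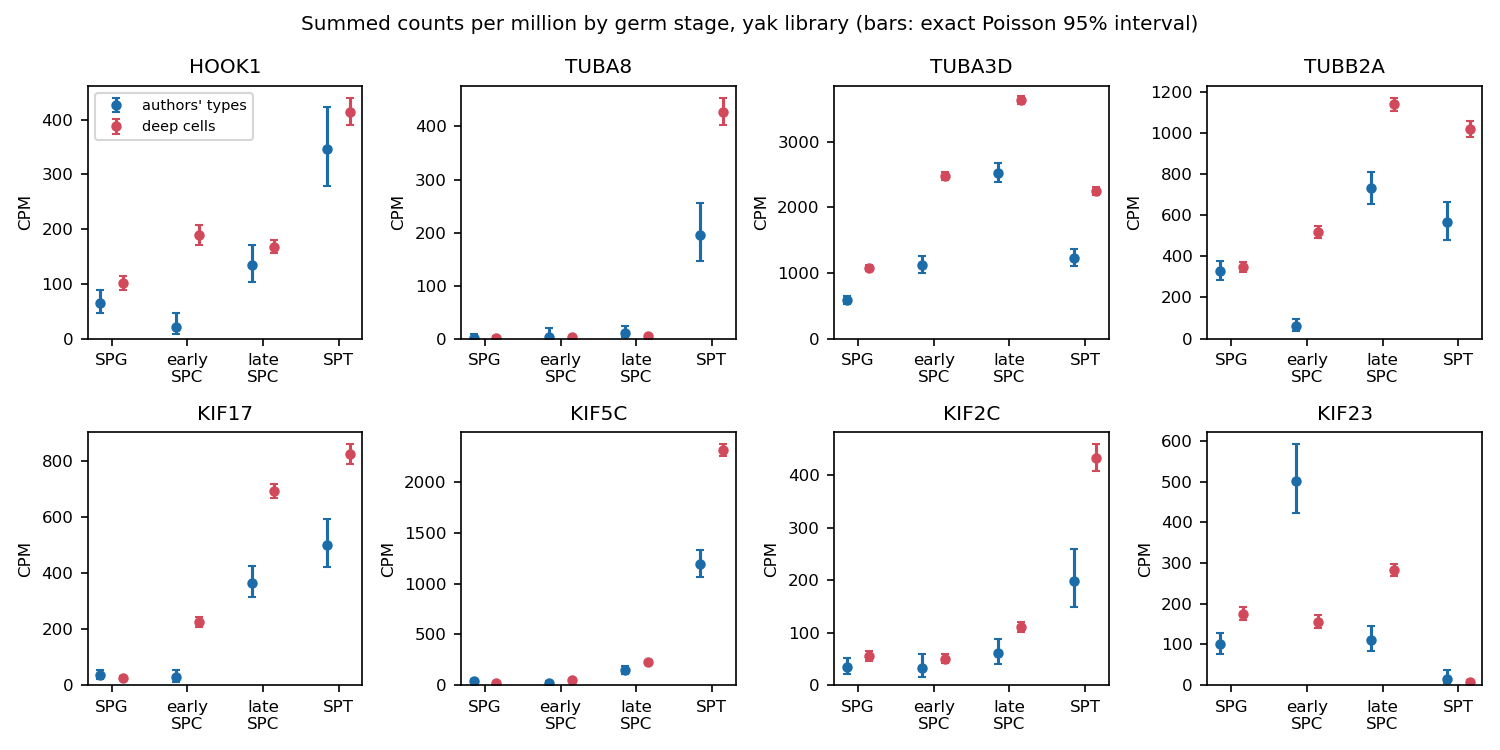
CPM of 8 members (vertical axis) by germ stage of the yak library (horizontal axis), for the authors' types in blue and deep cells in red, with exact Poisson 95% intervals as bars. *KIF5C* reaches 1189 CPM in SPT and 2311 CPM in deep SPT-like cells, and *KIF23* falls to 14.7 and 8.02 CPM there.

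Among the cilium and flagellum kinesins, *KIF17* and *KIF27* had their highest values in spermatids and *KIF3A* and *KIF3B* in late spermatocytes. *KIF17*, a homodimeric kinesin-2 that moves cargo in cilia and in male germ cells, stood at 35.6 CPM (22.3 to 53.8) in SPG, 28.1 CPM (12.1 to 55.4) in early-SPC, 365 CPM (313 to 424) in late-SPC and 501 CPM (420.1 to 592) in SPT. The deep stages gave 24.4, 224, 692 and 824 CPM. In typed cells the main step of *KIF17* lay between early and late spermatocytes, with a log2 ratio of 3.65 (2.69 to 4.94). In deep cells the larger step was the earlier one, with 3.15 (2.81 to 3.61) from SPG-like to early SPC-like cells and 1.62 (1.49 to 1.76) from there to late SPC-like cells. *KIF27*, a kinesin of motile cilia, went from 126 CPM (99.6 to 157) in SPG to 475 CPM (397 to 564) in SPT and from 202 CPM (184 to 220.3) to 785 CPM (751 to 819) in the deep cells.

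*KIF3B*, a heterodimeric kinesin-2 subunit of intraflagellar transport, had no count in early-SPC, against 170.1 CPM (135 to 211) in late-SPC. The late-SPC level was 16.1 times a floor of 3 early-SPC counts, or 10.5 CPM. That ratio leaves out the counting error of late-SPC. Deep early SPC-like cells, with their higher late-SPC markers, had 197 CPM (179 to 215) of *KIF3B*, with 269 CPM (254 to 285) in late SPC-like and 97.0 CPM (85.5 to 109.7) in SPT-like cells. *KIF3A*, its partner subunit, changed less, from 105 CPM (81.1 to 134) in SPG to 209.9 CPM (171 to 255) in late-SPC and from 108 CPM in deep SPG-like to 249 CPM in deep late SPC-like cells, where early SPC-like cells overlapped the latter. The step of *KIF3B* from spermatogonia to early spermatocytes thus had opposite directions in the typed and deep sets, the typed one from 17 counts in SPG. *KIF24*, a centriolar kinesin that restrains cilium growth, was highest in early-SPC at 165 CPM (121 to 219) against 21.0 CPM (11.2 to 35.9) in SPG, while deep early SPC-like cells had 55.7 CPM (46.7 to 66.0) against 41.4 CPM (33.7 to 50.3). *KIF9*, of the sperm axoneme, was low, at 47.9 CPM (25.5 to 81.8) in SPT and 53.2 CPM (46.7 to 60.4) in deep late SPC-like cells. *KIF6*, *KIF7* and *KIF19* had at most 14.1 CPM in any typed or named deep stage.

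The kinesin-1 heavy chains, which transport cargo, differed from each other in stage. *KIF5B*, the broadly used chain, was highest in early-SPC at 952 CPM (842 to 1072), with 218 CPM (183 to 258) in SPG, 321 CPM (272 to 376) in late-SPC and 73.6 CPM (45 to 114) in SPT. Its deep stages gave 310.0, 513, 252 and 68.4 CPM, again highest in early spermatocytes with intervals apart from the next stage. *KIF5C*, a chain best known from neurons, ran from 42.0 CPM (27.4 to 61.6) in SPG and 17.6 CPM (5.70 to 41.0) in early-SPC to 145 CPM (113 to 183) in late-SPC and 1189 CPM (1063 to 1326) in SPT.

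The deep cells gave the same order for *KIF5C* from early spermatocytes on, at 49.1 CPM (40.6 to 58.7), 226 CPM (213 to 241) and 2311 CPM (2254 to 2370.4). At 1000 UMIs a *KIF5C* UMI was found in 65.3% (55.0 to 74.6) of SPT and 84.5% (74.0 to 92.0) of deep SPT-like cells, and in 1.57% (1.19 to 2.04) of T/NK-like cells (58.5%, 71 of 71 cells and 3.36% unthinned). From late spermatocytes to spermatids *KIF5C* had a log2 ratio of 3.03 (2.66 to 3.43) and *KIF5B* one of -2.11 (-2.88 to -1.45), and in deep cells 3.35 (3.26 to 3.45) and -1.87 (-2.12 to -1.65). *KIF5A*, the third chain of the family, stayed at or below 18.8 CPM in the typed and named deep stages.

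Other transport kinesins had smaller or set-dependent changes. *KIF1B*, a kinesin-3 that carries organelles, was highest in early-SPC at 267 CPM (210.3 to 334) against 54.9 to 73.6 CPM in the other stages from SPG to SPT, but in deep cells early and late spermatocytes overlapped at 93.1 and 88.1 CPM. *KIF1C*, another kinesin-3, fell from 72.4 CPM (62.1 to 84.0) in deep SPG-like cells to 3.75 CPM (2.19 to 6.01) in late SPC-like and 3.82 CPM (1.83 to 7.03) in SPT-like cells, whereas typed late-SPC and SPT kept 29.4 and 33.1 CPM. *KIF1C* was expressed at 157 CPM (145 to 169) in MC-like cells, whose markers were also in the typed groups, and the part of those markers in its level was not tested. *KIFC3*, a minus-end motor, had 104 CPM (94.4 to 113) in deep late SPC-like and 107 CPM (94.8 to 120.3) in deep SPT-like cells, against 11.6 CPM (7.70 to 16.8) in deep SPG-like cells. *KIF21B*, which limits microtubule growth, stood at 54.3 CPM (45.7 to 63.9) in deep SPT-like cells and at most 2.07 CPM in the other named deep stages, with 47.9 CPM (25.5 to 81.8) in SPT.

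The spindle and midzone kinesins included some that were low in spermatids and some that were highest there. *KIF23*, the midzone motor of cytokinesis, fell from 502 CPM (423 to 592) in early-SPC and 111 CPM (83.4 to 146) in late-SPC to 14.7 CPM (4.01 to 37.7) in SPT. In deep cells it was highest in late SPC-like cells at 283 CPM (268 to 299). SPG-like cells were next at 175.5 CPM (159 to 193), then early SPC-like cells, and SPT-like cells had 8.02 CPM (4.97 to 12.3). Early spermatocytes were thus its highest typed stage, but in the deep set they were below SPG-like cells. *KIF11*, the motor that keeps spindle poles apart, was at 159 CPM (143 to 176) in deep SPG-like, 143 CPM (128 to 159) in early SPC-like, 67.1 CPM (59.8 to 75.1) in late SPC-like and 15.7 CPM (11.2 to 21.2) in SPT-like cells. *KIF22*, a chromosome-binding kinesin, took the same course from 179.7 to 26.4 CPM, and the chromosome, midbody and midzone kinesins *KIF4A*, *KIF14* and *KIF20A* were at most 3.44 CPM in deep SPT-like cells.

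In contrast, *KIF15*, *KIF2C* and *KIF2B* were highest in spermatids. *KIFC1*, a minus-end motor of the spindle, took neither course, with 72.4, 74.4, 25.6 and 32.5 CPM in the deep stages from SPG-like to SPT-like cells. *KIF15*, a spindle kinesin that can replace the main pole motor, was high in SPG-like (423 CPM, 398 to 449.8) and early SPC-like cells (382 CPM, 357 to 407), dropped to 43.7 CPM (37.8 to 50.3) in late SPC-like cells and stood at 549 CPM (521 to 578) in SPT-like cells. The typed stages showed the same dip, at 178, 274, 86.1 and 331 CPM. *KIF2C*, a microtubule depolymerase of the centromere, stood at 199 CPM (149 to 259) in SPT and 433 CPM (408 to 459) in deep SPT-like cells, against 60.9 CPM (40.8 to 87.4) and 111 CPM (101 to 121) in late spermatocytes. *KIF2B*, a related depolymerase, was at 133 CPM (92.8 to 183) in SPT and 217 CPM (199 to 235) in deep SPT-like cells, and at most 7.02 CPM in any earlier stage of either set.

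Stage by stage, members were called in both directions. From SPG to early-SPC, 7 members were higher and 4 lower of 24, where 24.8% and 35.9% of 5454 genes were, with a median of 0.35 for members and -0.27 for all genes. The higher ones were led by *KIF24* at 2.92 (2.06 to 3.98), *KIF23* at 2.31 (1.89 to 2.78), *KIF1B* at 2.26 (1.68 to 2.91) and *KIF5B* at 2.12 (1.82 to 2.43), and *TUBB2A* was lowest at -2.45 (-3.27 to -1.75). From early-SPC to late-SPC, 8 were higher and 9 lower of 25 (39.4% and 28.3% of 4968 genes, medians 0.28 and 0.35). From late-SPC to SPT, 6 were higher and 6 lower of 24 (21.1% and 27.9% of 5138 genes, medians 0.31 and -0.26), and from SPG to SPT, 11 were higher and 7 lower of 26 (24.6% and 32.3% of 5959 genes, medians 0.84 and -0.39). These comparisons share groups and are not separate evidence.

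**Figure D3:**
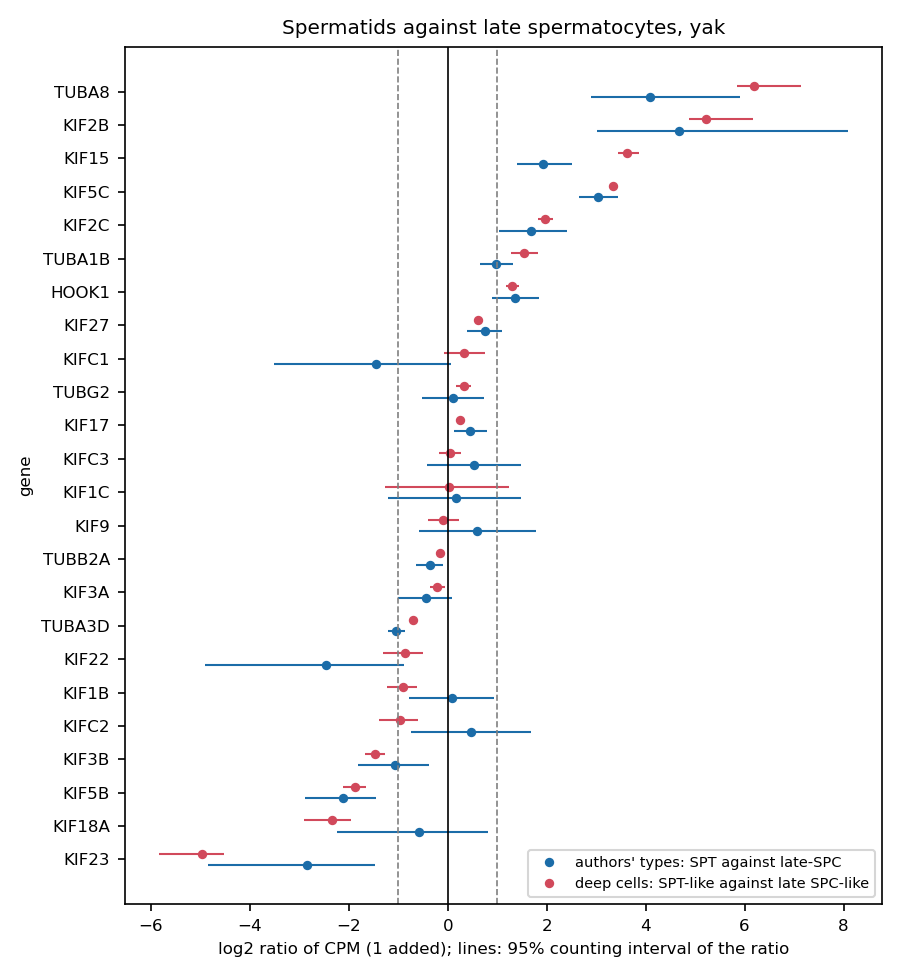
Log2 ratio of CPM, with 1 added, of spermatids over late spermatocytes (horizontal axis) for each member with enough counts in both sets (vertical axis), for the authors' types in blue and deep cells in red. Lines are 95% counting intervals of the raw ratio and dashed lines mark 2-fold; *TUBA8*, *KIF2B*, *KIF15*, *KIF5C*, *KIF2C* and *HOOK1* lie right of 2-fold in both sets, and *KIF3B*, *KIF5B* and *KIF23* left of it.

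The deep cells, with more counts per stage, were compared in the same way. Deep SPT-like against all deep spermatocyte-like cells gave 8 higher and 13 lower of 38 members, where 23.3% and 42.3% of 11214 genes were, and medians of -0.21 for members and -0.67 for all genes. The largest ratios were those of *TUBA8* at 6.45 (6.23 to 7.39), *KIF2B* at 5.31 (5.08 to 6.17), *KIF21B* at 4.50 (4.31 to 6.32) and *KIF5C* at 3.80 (3.72 to 3.90), and the smallest those of *KIF23* at -4.73 (-5.59 to -4.28), *KIF4A* at -3.62 (-7.81 to -2.87), *KIF14* at -3.03 (-4.51 to -2.41), *KIF20A* at -2.74 (-4.92 to -2.01) and *KIF24* at -2.74 (-3.89 to -2.17). In comparisons added after the data were seen, 10 of 34 members were higher and 4 lower in deep early SPC-like than SPG-like cells (19% and 19.5% of 9581 genes), 10 of 36 higher and 9 lower in late than early SPC-like cells (24.2% and 33.1% of 9911), and 8 of 36 higher and 10 lower in SPT-like than late SPC-like cells (27.7% and 35% of 9868). No member was called in the same direction from spermatogonia to early spermatocytes in both sets. The share of all genes called in the same direction in both sets was not computed, so this describes the members only. The calls rest on the 2-fold limit. *TUBA3D* and *KIF5B* were higher in early spermatocytes than in spermatogonia in both sets, with intervals apart. *HOOK1* and *TUBB2A* were lower at that step in typed cells and higher in deep cells. So was *KIF5C*, but its typed intervals overlapped.

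The highest stage of a member was mostly the same in both sets. Of 23 members with at least 50 counts over the typed stages without SSC, 3 were highest in SPG, 6 in early-SPC, 5 in late-SPC and 9 in SPT. The interval of the highest stage was apart from that of the second for none of the first, 5 of the second, 2 of the third and 5 of the last (*HOOK1*, *KIF27*, *KIF2C*, *KIF5C* and *TUBA8*). Of 35 members in the deep stages, 8, 5, 10 and 12 were highest in SPG-like, early SPC-like, late SPC-like and SPT-like cells, and 3, 1, 5 and 10 of these had separate intervals. Among the 23 measured in both, the highest stage was the same for 19 and differed for *KIF11*, *KIF18A*, *KIF23* and *KIFC1*. The highest stage was not computed for all genes, so these counts describe the members and have no background beside them.

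Within the deep spermatids the manchette adaptor and several kinesins varied further. The 71 SPT-like cells fell into sub-clusters of 34, 11 and 26 cells with similar median depths of 34448.5, 31531 and 33678 UMIs. *HOOK1* stood at 545 CPM (505 to 588) in the first, 367 CPM (307 to 436) in the second and 266 CPM (235 to 300.1) in the last, and *KIF2C* at 652 CPM (609 to 699), 395 CPM (333 to 466) and 169 CPM (145 to 197). *TUBA8* ran from 603 to 195 CPM and *KIF2B* from 303 to 97.0 CPM in the same order. *KIF5B* and *KIF27* went the other way. *KIF5B* had 28.5 CPM (20.0 to 39.5) in the first against 130.1 CPM (109 to 154) in the last sub-cluster, and *KIF27* had 696 CPM (651 to 744) against 946 CPM (887 to 1009). *KIF15* differed least of these, from 588 CPM (547 to 632) to 499 CPM (456 to 545).

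The typed SSC are described apart because their EC markers stood above those of the other types. Their germ cell markers were lower than those of typed SPG, at 627 against 1761.5 CPM for the SPG list and 555 against 718 CPM for the pooled germ list. The part of this in the ratios below was not tested. Against SPG, none of 22 members was higher and 12 were lower, where 7.53% and 23.3% of 5035 genes were. *TUBA3D* had a log2 ratio of -2.1 (-2.81 to -1.47) from 21 counts in SSC, and *KIF15* one of -2.15 (-3.66 to -1.01) from 6 counts. *KIF22*, *KIFC1* and *KIF2C* had no count in SSC. Their SPG levels were 4.62, 2.06 and 1.73 times a floor of 3 SSC counts, the last short of 2-fold. These ratios leave out the counting error of SPG and are not lower bounds.

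Genes of the same machinery that the symbols above do not take were followed in lists of manchette genes (28 of 34 annotated), tubulin partners such as chaperones and modifying enzymes (31 of 38) and kinesin partners (13 of 15). The partner lists also held *TUBD1* and *TUBE1*, themselves tubulins, and *CENPE*, itself a kinesin, whose symbols the rule does not match. In typed germ cells against other kept cells, 22 of 28 manchette genes were higher and none lower with a median of 2.18, 15 of 30 tubulin partners were higher and 1 lower (0.91), and 8 of 13 kinesin partners were higher and 1 lower (1.56), beside 29% higher, 15.1% lower and a median of 0.23 for all genes. From SPG to SPT, 12 of 19 manchette genes were higher and 1 lower, with a median of 2.65, where 24.6% and 32.3% of all genes were and their median was -0.39. They included *SUN5*, of the head-tail coupling apparatus, at 173 against 6.46 CPM, and *SPEF2*, of the axoneme, at 202 against 14.5 CPM. *HOOK3*, a paralog of *HOOK1*, was the exception, with a log2 ratio of -1.75 (-2.73 to -0.93).

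Partners were also called in both directions in deep spermatids. In deep SPT-like against deep spermatocyte-like cells, 9 of 27 manchette genes were higher and 4 lower (median 0.33), beside 23.3% higher and 42.3% lower of all genes and their median of -0.67, led by *SUN5* at 7.61 (7.69 to 10.94) and with *CCDC38* lowest at -4.13 (-4.79 to -3.73). Of 27 tubulin partners 7 were higher and 7 lower (median -0.40), among them *TTLL2*, a tubulin-glutamylating enzyme, at 5.53 (5.48 to 8.08), and *TBCB*, a tubulin-folding cofactor, at -3.87 (-4.56 to -3.46). Of 11 kinesin partners 3 were higher and 5 lower (median -0.12), close to the shares of all genes. The higher ones included the kinesin-1 light chains *KLC3* at 5.04 (5.02 to 7.92) and *KLC4* at 3.55 (3.26 to 4.84), and the lower ones the spindle proteins *TPX2* at -5.23 (-6.84 to -4.64), *PRC1* at -4.65 (-5.20 to -4.30) and *CENPE* at -4.02 (-4.65 to -3.63).

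In the cattle-yak library, germ cells numbered 330 in 2 groups, 64 SPC-like cells and 266 cells whose stage was left unnamed, and no cluster was SPT-like. They held 6380476 UMIs, against 16552305 UMIs in 1726 yak germ-like cells. Several members that were highest in yak spermatids had far fewer counts in the cattle-yak library as a whole. *KIF2B* had 774 counts in yak and 12 in cattle-yak, *TUBA8* 1508 and 78, *KIF17* 7425 and 228, *KIF5C* 9176 and 293, *KIF2C* 2382 and 366, and *HOOK1* 3296 and 612. Of others highest in deep SPT-like cells, *KIFC3* had 1972 and 808, *KIF21B* 515 and 148, and *KIF19* 174 and 63. *KIF15*, *KIF27* and *TUBG2*, also highest there, had 2252, 4314 and 3570 counts in cattle-yak against 5042, 10067 and 4980 in yak. Several of these were counted in somatic cells too. *KIF27*, *TUBG2* and *KIFC3* stood at 88.5, 64.8 and 35.8 CPM in yak EC-like cells. *KIF21B* stood at 25.9 CPM (19.7 to 33.4) in a cluster of 1120 yak T/NK-like cells. Class sizes also differed, with 3666 T/NK-like and 883 stromal-like cells in yak against 1180 and 2865 in cattle-yak. The part of somatic cells in these whole-library counts was not tested. The 266 cells of unnamed stage held the SPG marker list at 3225 CPM, against 2665 CPM in the 793 yak SPG-like cells. In a comparison of these groups added after the data were seen, none of 40 members was higher and 2 were lower, *HOOK1* at -1.02 (-1.23 to -0.83) and *KIF1C* at -1.23 (-1.46 to -1.03), where 3.01% and 11.3% of 11825 genes were. *HOOK1* stood at 54.2 CPM (48.3 to 60.6) there against 111 CPM (102 to 119.9) in yak.

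The SPC-like cells of the libraries differed in many members, as they did in many genes. Between 64 cattle-yak and 364 yak cells, 11 members were higher in cattle-yak and 13 lower of 39, where 24.1% and 31.4% of 10839 genes were, with medians of 0.02 and -0.07. The marker lists differed in stage: early-SPC markers summed to 3858 CPM in cattle-yak and 1594 CPM in yak, late-SPC markers to 759.9 and 2478 CPM, and spermatid markers to 19.1 and 1373 CPM, with 9 of 12 at 0 in cattle-yak. Stage make-up and library thus moved together, and the part of the former in these ratios was not tested.

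**Figure D4:**
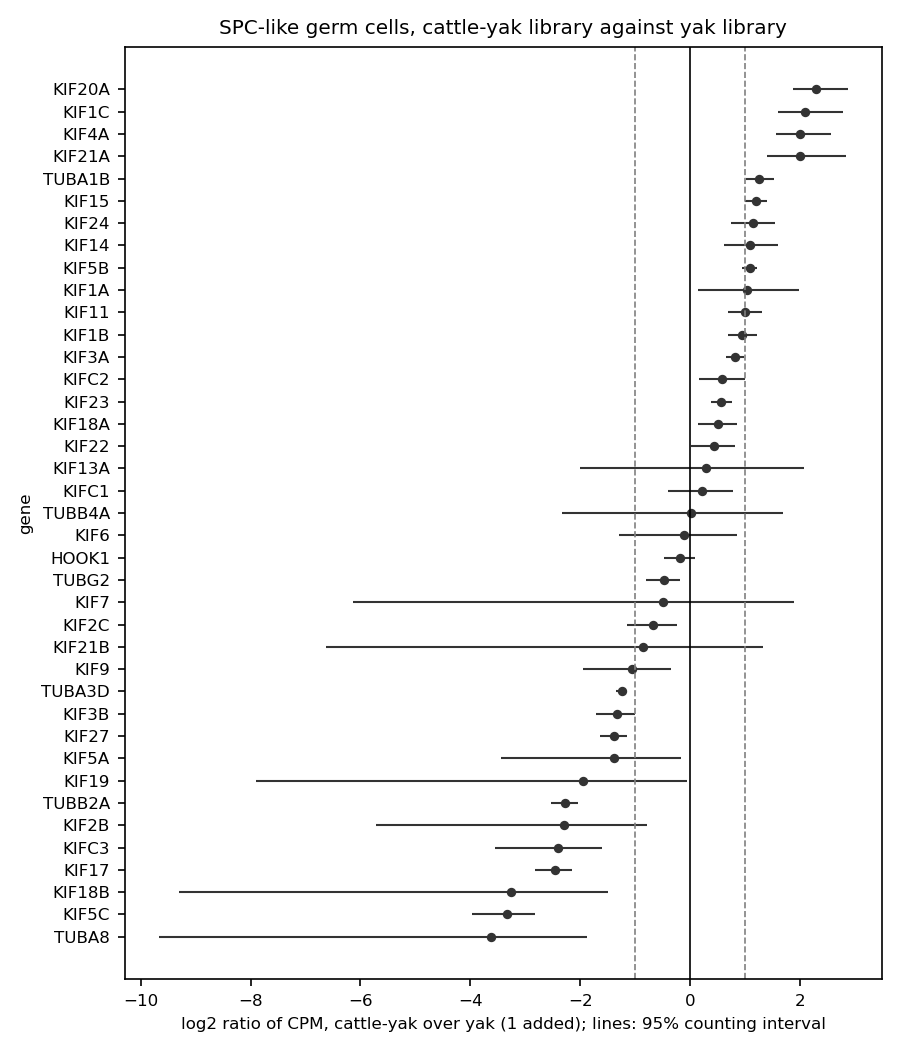
Log2 ratio of CPM, with 1 added, of cattle-yak over yak SPC-like germ cells (horizontal axis) for 39 members (vertical axis). Lines are 95% counting intervals of the raw ratio and dashed lines mark 2-fold; *KIF20A*, *KIF1C*, *KIF4A* and *KIF21A* lie to the right, *TUBA8*, *KIF5C*, *KIF17* and *TUBB2A* to the left, and *HOOK1* near 0.

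The 13 members lower in cattle-yak included tubulins, transport and flagellum kinesins, and the spindle kinesins *KIF2B* and *KIF18B*. *KIF5C* stood at 36.8 CPM (24.2 to 53.5) against 381 CPM (367 to 394), a log2 ratio of -3.34 (-3.98 to -2.83), *KIF17* at 108 CPM (85.2 to 134) against 599 CPM (582 to 616), and *TUBB2A* at 195 CPM (164 to 229) against 946 CPM (925 to 968). *TUBA3D* had a ratio of -1.24 (-1.34 to -1.15) and *KIF3B* one of -1.34 (-1.72 to -1.0). The 64 cattle-yak cells were a cluster of 16 and a cluster of 48 cells. *TUBA3D* stood at 2328 CPM (2157 to 2508) in the 16 and 678 CPM (603 to 759) in the 48. *KIF3B* stood at 230 CPM (178 to 291) in the 16 cells, beside 231 and 237 CPM in the yak SPC-like clusters. *TUBB2A*, at 304 and 121 CPM, was below the yak level in both. The part of this mix in the ratios was not tested. *TUBA8*, at -3.61 (-9.67 to -1.87), and *KIF18B*, a spindle depolymerase, at -3.26 (-9.30 to -1.49), rest on 1 cattle-yak count each. For *KIF18B* the direction depended on the clustering, with 0.42 where cells were clustered more finely.

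The 11 members higher in cattle-yak included 5 of the spindle and midzone, *KIF4A*, *KIF11*, *KIF14*, *KIF15* and *KIF20A*. The others were the transport kinesins *KIF1A*, *KIF1C*, *KIF5B* and *KIF21A*, with *KIF24* and *TUBA1B*, so the roles were found on both sides. *KIF20A* stood at 69.5 CPM (51.7 to 91.3) against 13.4 CPM (11 to 16.1), for a log2 ratio of 2.30 (1.87 to 2.87). *KIF4A* stood at 64.0 CPM (47.0 to 85.1) against 15.2 CPM (12.6 to 18.1). *KIF1C* had a ratio of 2.1 (1.60 to 2.79), *KIF21A*, a brake on microtubule growth, one of 2.00 (1.40 to 2.84), and *TUBA1B* one of 1.26 (1.01 to 1.52). *HOOK1* was at 149.8 CPM (123 to 181) against 170.4 CPM (162 to 179.6), and the interval of its ratio, -0.48 to 0.09, included no difference. Of the lists, 3 of 27 manchette genes were higher and 15 lower in cattle-yak with a median of -1.80, where 24.1% and 31.4% of all genes were and their median was -0.07, 4 of 28 tubulin partners were higher and 14 lower (-1.03), and 4 of 10 kinesin partners were higher and 1 lower (0.64).

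Among somatic cells the libraries were compared in 7 classes, which include deep cells. In EC-like cells, 12 of 34 members were higher in the 991 cattle-yak cells than in the 1035 yak cells and 4 were lower, where 7.34% and 3.52% of 11134 genes were. All but *KIF21A* of the 12 were spindle or midzone kinesins, such as *KIF11* at 29.3 CPM (25.5 to 33.6) against 1.08 CPM (0.434 to 2.22) and *KIF23* at 54.9 CPM (49.6 to 60.6) against 3.08 CPM (1.88 to 4.76). Without 2 cattle-yak clusters, 1 of 99 cells with *KIF23* at 311 CPM (278 to 346) and 1 of 76 cells of which 44 were deep, 816 EC-like cells remained, and in this alternative, chosen after the data were seen, 2 members were higher, *KIF23* at 1.43 (0.93 to 2.53) and *KIF21A* at 1.95 (1.51 to 3.41), while 4 were still lower. Outside this class *KIF23* was also high in small T/NK-like clusters, at 316 CPM (276 to 359) in 84 yak cells and 428 CPM (349 to 520.4) in 54 cattle-yak cells.

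In the other 6 somatic classes no member with enough counts was higher in cattle-yak by 2-fold, and 2 to 6 were lower. In lymphatic EC-like cells 3 of 18 were lower (11.6% of genes lower and 2.75% higher), in MC-like cells 3 of 21 (4.58% and 3.07%), in pericyte-like cells 3 of 13 (9.44% and 2.92%), in stromal-like cells 5 of 26 (9.36% and 2.61%), in macrophage-like cells 2 of 13 (8.75% and 3.41%) and in T/NK-like cells 6 of 33 (9.59% and 3.02%). The medians were -0.41 to -0.04 for members and -0.32 to -0.11 for all genes in these 6 classes, and 0.24 and 0.01 in EC-like cells. *TUBA3D* was lower in all 7 classes, at 25.0 to 57.9 CPM in yak against 4.45 to 11.5 CPM in cattle-yak. *KIF17* was at 7.89 to 21.0 CPM in yak against at most 2.30 CPM in cattle-yak, with no count in cattle-yak MC-like cells. There the yak level was 12.4 times a floor of 3 cattle-yak counts, a ratio that leaves out the counting error of yak. *KIF5C* was at 8.79 to 19.0 CPM against 0.803 to 6.58 CPM. Outside the 7 classes and the germ cells, 1 cattle-yak cluster of 336 cells had *KIF5C* at 34.9 CPM (25.6 to 46.4).

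**Figure D5:**
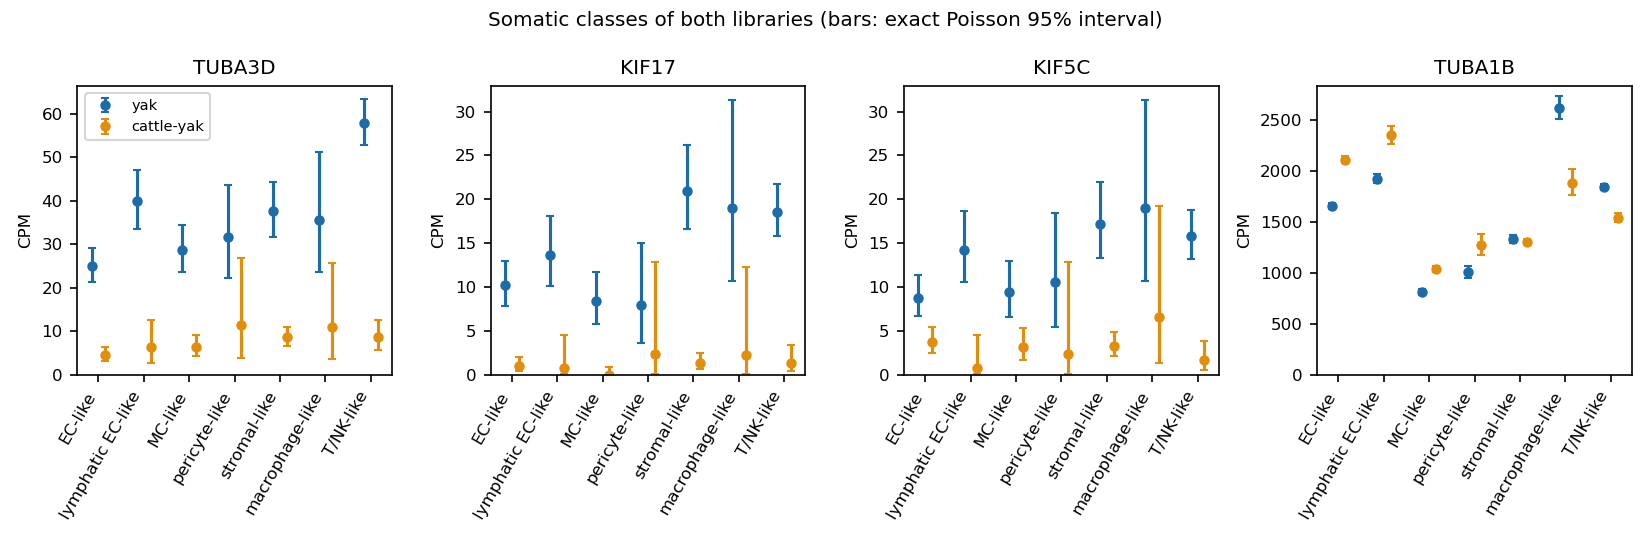
CPM (vertical axes) of *TUBA3D*, *KIF17*, *KIF5C* and *TUBA1B* in 7 somatic classes (horizontal axis) of the yak library in blue and the cattle-yak library in orange, with exact Poisson 95% intervals as bars. *TUBA3D* lies at 25.0 to 57.9 CPM in yak and 4.45 to 11.5 CPM in cattle-yak, whereas *TUBA1B* goes either way between the libraries.

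These 3 genes are among the most abundant members in yak germ cells, and other germ cell genes were present in yak somatic classes too. The 12 spermatid markers summed to 29.4 to 83.6 CPM in the 7 yak somatic classes, with 0 to 2 of them at 0, and to 0 to 2.19 CPM in those of cattle-yak, with 7 to 12 at 0. Per 100 *TUBA3D* counts, yak somatic classes held 25.0 to 55.7 counts of *KIF17* and 27.3 to 53.6 of *KIF5C*, against 18.7 (18.3 to 19.2) and 23.5 (23 to 24.1) in yak germ-like cells, deep ones included. For *HOOK1* the somatic range was 3.57 to 16.4, against 8.47 (8.16 to 8.78) in germ-like cells. A shallow cluster of 422 yak germ-like cells had 250 *KIF17* and 233 *KIF5C* counts beside 722 of *TUBA3D*, so germ cells differed among themselves in these proportions. The 7 late spermatid markers also lay apart, at 12.2 to 40.15 CPM in yak and 0 to 1.45 CPM in cattle-yak somatic classes. The ranges of the late-SPC, early-SPC and pooled germ lists overlapped between the libraries. Late-SPC markers summed to 43.5 to 71.2 CPM in yak and 30.5 to 74.6 CPM in cattle-yak somatic classes, and early-SPC markers to 17.5 to 931 and 13.2 to 989 CPM. The part of free germ cell RNA in the somatic levels was not tested. *TUBA1B*, by contrast, was higher in cattle-yak in EC-like cells, at 2111 CPM (2077 to 2144) against 1656 CPM (1625 to 1687), and lower in macrophage-like cells, at 1883 CPM (1759 to 2013) against 2619 CPM (2508 to 2735), all within 2-fold. Without the 2 cattle-yak clusters left out above, *TUBA1B* in EC-like cells stood at 1637 CPM in cattle-yak against 1656 CPM in yak. That log2 ratio was -0.017 (-0.058 to 0.025).

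Levels also differed between somatic classes. *KIF21A* stood at 178 CPM (140.1 to 223) in the 76 epithelial-like cells of yak and at most 6.45 CPM in the 7 somatic classes of that library. In cattle-yak it had 10.6 CPM in the 816 EC-like cells left above and 202 CPM (168 to 242) in a cluster of 144 cells outside these classes. *KIF13A*, which carries vesicles, was at 65.9 CPM (58.1 to 74.4) in MC-like and 49.7 CPM (44.4 to 55.4) in EC-like cells against 5.43 CPM (3.96 to 7.27) in T/NK-like cells, and was with *TUBA1B* the only member lower in typed germ cells than in other kept cells, at -1.05 (-1.71 to -0.55). *KIF5B* was highest of these classes in EC-like cells in both libraries, at 250.4 CPM (238 to 263) and 283 CPM (271 to 296). *KIF26A* and *KIF26B*, atypical kinesins of signalling and adhesion, had 3.45 and 3.86 CPM in other kept cells and at most 4.20 CPM in any typed stage from SPG to SPT. Single classes stood higher. *KIF26B* had 22.0 CPM (17.4 to 27.5) in yak and 27.3 CPM (18.9 to 38.2) in cattle-yak lymphatic EC-like cells, and *KIF26A* 13.4 CPM in yak EC-like cells.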

How the data were processed

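Testis cells of 1 yak library and 1 cattle-yak library were measured by droplet single-cell RNA-seq. The authors deposited UMI counts per gene and barcode made with Cell Ranger, as version 5.0.0 per the file headers and version 2.1.1 per the labels, on the yak genome. The germ types of 1127 yak barcodes were taken from the list of typed barcodes in the study's supplement. Every column of the deposited files was mapped, and no reference sequence was used, so no sequence is shown.

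Barcodes with at least 30% mitochondrial counts were left out (877 in yak and 1310 in cattle-yak). Barcodes above the mean plus 2 SD of UMIs or genes (21212 UMIs or 3637 genes in yak, 16018 or 3275 in cattle-yak) were called deep and held apart from the 10324 and 7092 kept ones. These limits were computed over all barcodes of a library, and more yak barcodes were kept than the study reports. Each library was clustered in scanpy 1.11.5 (2000 variable genes, 30 principal components, 15 neighbours, Leiden clustering by igraph 0.11.9 at resolution 1, seed 0), deep barcodes included. The members described here and mitochondrial and rRNA features were left out of this clustering. Deep yak germ cells were clustered again with the same settings and exclusions. A cluster was called X-like where 3 or more markers of a list were detected in at least 10% of the cluster and were raised there by a log2 ratio of 1 or more. Scrublet called 0 of 11991 yak barcodes, so it did not work there, and 251 of the cattle-yak barcodes, and no doublet was removed.

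Counts were summed by group and given as CPM. Ratios, intervals (95%, exact Poisson, conditional and Clopper-Pearson) and the floor of 3 counts were computed with numpy 2.4.6, scipy 1.17.1 and pandas 2.3.3 in Python 3.11.15, in scripts tested on simulated data. They cover counting error only. Figures were drawn with matplotlib 3.10.9. With 1 library a group, no test was run. Genes named were HOOK1, the 5 largest and 5 smallest ratios past 2-fold with at least 50 counts in each comparison, the 2 members of each role with most counts in typed germ and in somatic cells, and up to 6 genes of each partner list. Further members named for their levels were chosen after their values were seen. The members, lists and comparisons were chosen with earlier results of these data known. Alternatives were 10 CPM added, minimums of 50 and 1 counts, a 20% mitochondrial limit, resolution 2, equal weight for each cell, other denominators, leaving out the 10% of barcodes with the highest Scrublet scores, and thinning to 500 UMIs.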

Additional observations from a re-analysis of the deposited data

How the results depend on the processing

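No paired analysis was possible because each group is 1 library, and no replicate could be left out. Typed cells were shallow and typed early-SPC few, typed groups held markers of other cell types, and the stages of the cattle-yak germ cells differed from those of yak, so the values describe these libraries. With genes of at least 50 counts, the members higher and lower in early-SPC than SPG went from 7 and 4 to 4 and 2, those lower in late-SPC than early-SPC from 9 to 5, and those higher in SPT than SPG from 11 to 7. With no minimum, 14 were lower in early-SPC than SPG, 19 were higher in late-SPC than early-SPC, and 10 were higher and 12 lower in SPT than late-SPC. Deep SPT-like against deep late SPC-like cells gave 10 lower, against 6 in the typed cells. Of the 2 members lower in typed germ than other kept cells, 1 was left with 10 CPM added or with equal weight for each cell. In SPC-like germ cells the 11 members higher in cattle-yak became 7 with 10 CPM added, and the 13 lower became 8 with finer clustering, where *KIF18B* turned from -3.26 to 0.42 on 1 cattle-yak count in the coarser clusters. Summed over the 7 somatic classes, 12 higher and 26 lower calls became 7 and 13 with 10 CPM added, 17 lower with at least 50 counts, and 26 higher and 49 lower with no minimum. Without 2 clusters of cattle-yak EC-like cells, an alternative added after the data were seen, 2 members were higher there in place of 12. The share of SPT with a *HOOK1* UMI was 15.6% at 500 UMIs against 31.6% at 1000 UMIs. For the other settings, causes of these shifts were not tested. Of the values that answer a comparison, 109 kept within 1.5 times or their interval and 19 did not, and of the others 628 did, 121 moved and 1 reversed.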
